A study of Macaca mulatta with 9 samples.

Results

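Expression of 9 genes of the blood vessel lining was followed across 9 libraries of kidney grafts from genetically modified pigs that had been carried by rhesus macaques. The genes were ICAM1, ICAM2, VCAM1 and SELE, which encode adhesion molecules for leukocytes, NOS3, KLF2 and KLF4, which respond to blood flow, and CAV1 and ENG, which encode structural and co-receptor proteins of the endothelial surface. They were taken by name, and all 9 were found among the 767 probes of the Human Organ Transplant Panel read on nCounter, which hybridises and counts RNA molecules without amplification. Total RNA had been drawn from formalin-fixed, paraffin-embedded renal biopsies, and every sample is labelled male. Grafts came from pigs of the line 1KO.1TG or 3KO.7TG, and 3 samples stood in each of the groups 1KO.1TG early R (called 1KO.1TG below), 3KO.7TG early bx (early bx) and 3KO.7TG late R (late R). Which alleles these lines carry, the treatment, the age and the meaning of R and bx are not spelled out in the labels. The labels do not tell if samples of a group are different animals. Every p-value therefore reflects the sample-to-sample spread alone, and that spread may be technical.

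Endothelial cells that meet inflammatory cytokines such as TNF and IL-1 switch on NF-κB and place E-selectin (SELE), VCAM-1 and ICAM-1 on their surface, where they slow, capture and arrest passing leukocytes. ICAM-2 is by contrast present on resting endothelium. Under steady laminar flow the transcription factors KLF2 and KLF4 raise endothelial nitric oxide synthase (NOS3) and restrain the adhesion programme. Caveolin-1 (CAV1) builds the membrane pits that hold and inhibit NOS3, and endoglin (ENG) is a co-receptor for TGF-β family ligands. In a kidney xenograft the endothelium belongs to the pig while the leukocytes come from the recipient. The panel is named as a human one, although some of its reference probes are listed for macaque or pig. No source used here gives how the probes of these genes bind pig or macaque RNA. A value therefore cannot be assigned to the RNA of either species. In such biopsies fewer cells of a type and less RNA per cell cannot be told apart.

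The libraries differed in yield. The low-yield library, as replicate 3 of 1KO.1TG is termed here, held 21725 counts, against 657340 to 1620151 in the other 8, called the full libraries. The 4 probes for viral genes, which served as a measure of background, gave 1 to 17 counts in any library, and 69.8% of all probes in the low-yield library lay at or below its own highest viral probe, against 8.60% to 19.4% in the other 8. Levels below are log2 CPM (counts scaled to the same total per library) over a library size scaled by trimmed means. In the low-yield library this scaling turns a background count of 7 into 6.99 log2 CPM, so the tests of ICAM1 and VCAM1 and the counts of members called are given with and without that library, and other values name the libraries they rest on where the library moves them. As a check of tissue, UMOD (uromodulin of the thick ascending limb) gave 452 to 31665 counts, while the proximal tubule receptor LRP2 gave 4 to 13. Of the defining endothelial markers, PECAM1 gave 11 to 1623 counts and VWF 7 to 561, each above the highest viral probe in 8 of 9 libraries, but CDH5 (VE-cadherin) exceeded it in 6 and CD34 in only 2.

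ICAM1 and VCAM1, both induced on activated endothelium, were ordered differently across the groups. ICAM1, which binds the leukocyte β2 integrins, gave 383, 730 and 7 counts in 1KO.1TG, 57, 85 and 189 in early bx, and 230, 301 and 361 in late R. Apart from the low-yield library, both 1KO.1TG libraries were above every 3KO.7TG library in counts, and late R was above early bx. The mean level was 8.29 ± 1.19 log2 CPM (SD, n = 3) in 1KO.1TG, 8.03 ± 0.36 in late R and 6.98 ± 0.52 in early bx. In the other 2 libraries it was 8.93 ± 0.58 (n = 2) in 1KO.1TG. The 7 counts in the low-yield library carry an exact 95% Poisson interval of 2.81 to 14.4. That interval holds the mean (5.25) and the highest (13) of its viral probes. Intervals of this kind cover counting error only.

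VCAM1, the ligand of integrin α4β1, gave 37, 22 and 6 counts in 1KO.1TG, 34, 43 and 100 in early bx, and 57, 251 and 151 in late R. Both full 1KO.1TG libraries held fewer VCAM1 counts than any library of late R, and the largest values belonged to replicates 2 and 3 of late R. The mean level was 6.85 ± 0.52 log2 CPM (SD, n = 3) in late R, 6.11 ± 0.42 in early bx and 5.43 ± 1.25 in 1KO.1TG, the last becoming 4.75 ± 0.60 (n = 2) without the low-yield library. Each neighbouring pair in this order overlapped over all 9 libraries. With the low-yield library left out, 1KO.1TG lay below both other groups.

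The other 2 adhesion probes gave low counts, near those of the viral probes in many libraries. ICAM2 gave 24, 9 and 14 counts in 1KO.1TG, 17, 21 and 11 in early bx, and 16, 10 and 15 in late R, above the highest viral probe of the library in 5 of 9. SELE gave 10, 7 and 7, then 13, 8 and 5, then 17, 17 and 7 in the same order, above it in 3 of 9. Both had their highest scaled level in the low-yield library (7.94 and 6.99 log2 CPM), although its counts of 14 and 7 lay within the range of the other libraries. ICAM2 reached 24 counts in 1KO.1TG replicate 1, with an exact 95% Poisson interval of 15.4 to 35.7 against a highest viral probe of 13. Over all 9 libraries the log2 fold changes of ICAM2 were −0.03, 0.73 and −0.76 in the 3 comparisons described below. Those of SELE were 0.29, 0.19 and 0.09, with limma adjusted p from 0.869 to 0.995 for the 2 genes. Without the low-yield library ICAM2 was at −0.47, 0.28 and −0.75, and SELE at −0.32, −0.42 and 0.10.

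**Figure D1:**
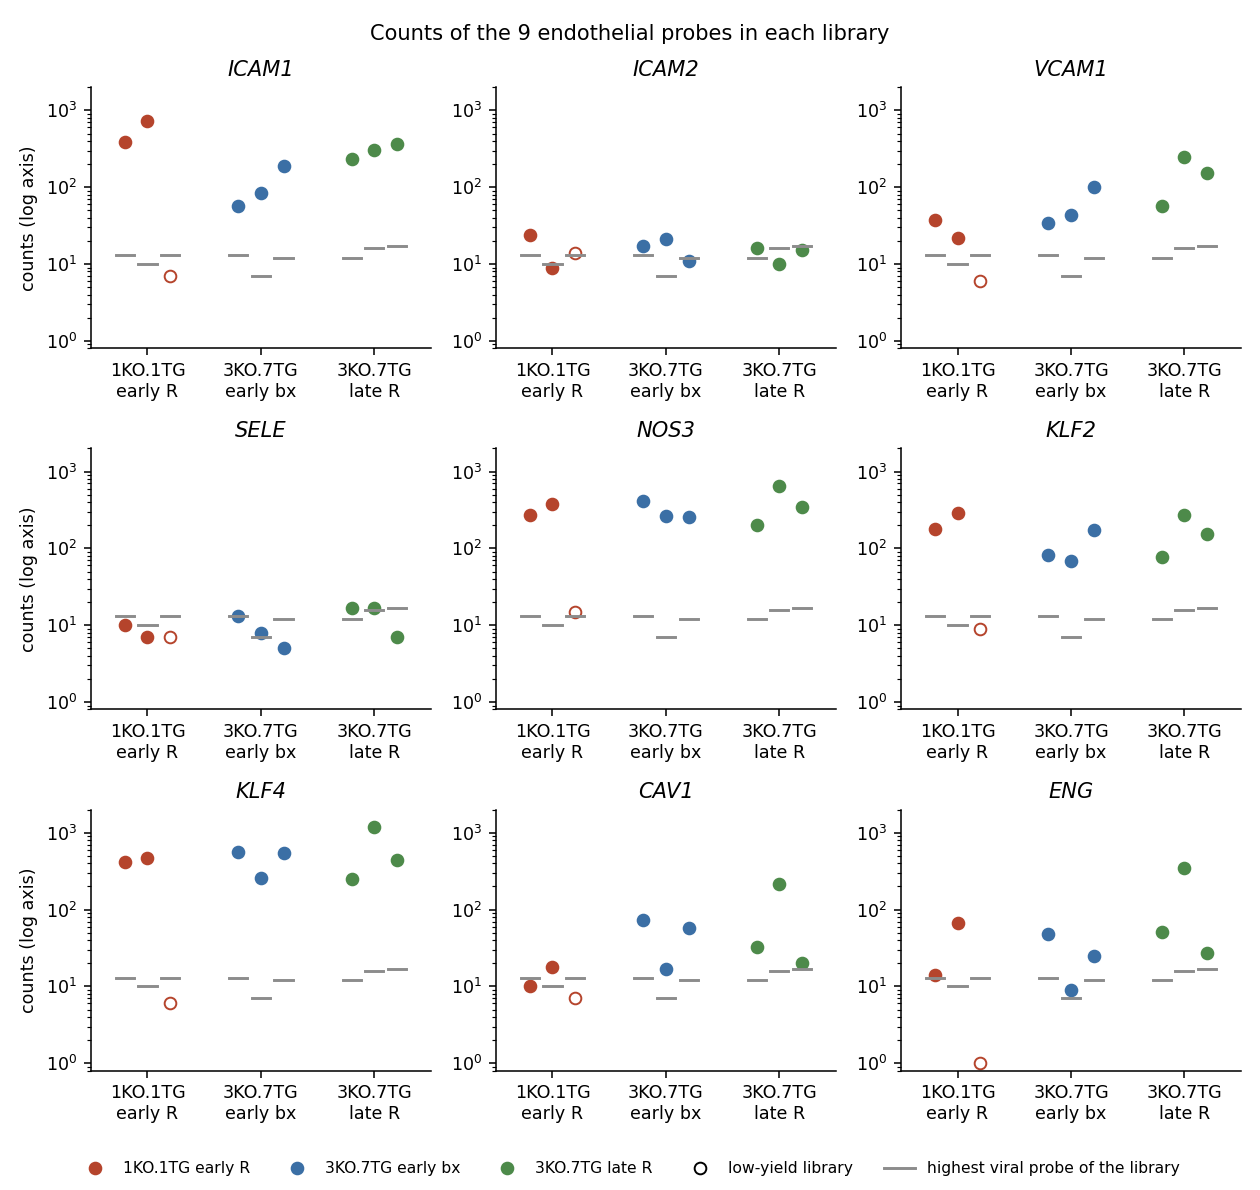
Counts of the 9 probes in each library on a log axis, by group, with the highest viral probe of the same library as a grey bar and the low-yield library as an open circle. ICAM1 reaches 730 counts and VCAM1 only 22 in the same 1KO.1TG library, while ICAM2 and SELE reach at most 24 and 17 counts.

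The flow-response genes were among the steadier members. KLF2 gave 180, 289 and 9 counts in 1KO.1TG, 83, 68 and 174 in early bx, and 78, 274 and 156 in late R. Its mean level was 7.59 ± 0.36 log2 CPM (SD, n = 3) in 1KO.1TG, 7.06 ± 0.38 in late R and 7.01 ± 0.24 in early bx, and the last 2 groups overlapped. 1KO.1TG lay above all of early bx but overlapped late R. Its 9 counts in the low-yield library lay below the highest viral probe there (13). Without that library the mean was 7.72 ± 0.41 (n = 2), and with the scaling refitted 1KO.1TG again lay above early bx and overlapped late R.

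KLF4 was the most abundantly counted member, with 420, 472 and 6 counts in 1KO.1TG, 562, 258 and 550 in early bx, and 249, 1204 and 447 in late R. Its order ran opposite to that of KLF2, from 9.12 ± 0.50 log2 CPM in early bx through 8.83 ± 0.69 in late R to 8.05 ± 1.10 in 1KO.1TG (SD, n = 3 each). The low mean of 1KO.1TG came from the low-yield library, without which it was 8.69 ± 0.044 (n = 2) and, with the scaling refitted, the groups overlapped. NOS3, the source of endothelial nitric oxide, gave 275, 378 and 15 counts, then 411, 262 and 255, then 199, 656 and 349 in the same order of groups. Its means of 8.16 ± 0.20, 8.61 ± 0.72 and 8.32 ± 0.39 log2 CPM (SD, n = 3 each) overlapped in every pairing. In the 8 full libraries the SD of the level was 0.43 for KLF2, 0.48 for NOS3 and 0.49 for KLF4, below the median SD of 0.58 among the 508 probes with a mean of at least 50 counts.

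CAV1 and ENG varied most among the members. Over the 8 full libraries, differences between group means held 45.3% of the variance of CAV1 and 21.8% of that of ENG. CAV1 gave 10, 18 and 7 counts in 1KO.1TG, 73, 17 and 57 in early bx, and 33, 215 and 20 in late R. ENG gave 14, 67 and 1 counts, then 48, 9 and 25, then 51, 346 and 27 in the same order. Replicate 2 of late R had the highest level of both genes and of VCAM1, and replicate 1 of 1KO.1TG had the lowest of CAV1 and ENG among the 8 libraries. The SD over these 8 was 1.37 for CAV1 and 1.40 for ENG, larger than that of 90.4% and 91.3% of the 508 probes. Mean CAV1 was 5.76 ± 0.95 log2 CPM in early bx, 5.56 ± 1.60 in late R and 4.79 ± 1.94 in 1KO.1TG, and mean ENG was 6.14 ± 1.73 in late R, 4.88 ± 1.13 in early bx and 4.79 ± 1.06 in 1KO.1TG (SD, n = 3 each). Neighbouring groups overlapped for both genes. In its 2 full libraries mean CAV1 of 1KO.1TG was 3.69 ± 0.50 (n = 2), below both early bx and, on average, late R.

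The first comparison asked how the donor lines differed among samples labelled early (1KO.1TG against early bx), in which R against bx cannot be told apart from donor line. ICAM1 was 3.10-fold higher in 1KO.1TG (log2 fold change 1.63 ± 0.54 SE, 95% interval 0.47 to 2.80, limma adjusted p = 0.245) and VCAM1 was 2.33-fold lower (−1.22 ± 0.60, limma adjusted p = 0.423). Neither passed. Of the 9 members, 0 passed after adjustment over all 767 probes, of which limma called 0.391%, and 1, ICAM1, had an unadjusted p under 0.05, as had 13.2% of all probes. Groups did not overlap for 2 members, KLF2 (higher) and KLF4 (lower), against 13.8% of all probes. When the low-yield library was omitted, ICAM1 stood 4.02-fold higher (2.01 ± 0.47 on the log2 scale, limma adjusted p = 0.060). Members passing were still 0, against 1.83% of all probes, and 2 members, ICAM1 and VCAM1, had an unadjusted p under 0.05, against 20.1%. The groups did not overlap for 4 members, ICAM1 and KLF2 on the higher side and VCAM1 and CAV1 on the lower, against 33.6% of all probes. VCAM1 was then at −1.31 ± 0.54 and CAV1 at −2.01 ± 0.97 (limma adjusted p = 0.207 and 0.303). ICAM1 passed in 1 of 24 alternative settings, with a quality weight for each library (1.66 ± 0.40, limma adjusted p = 0.040), where 33 probes in all were called against 3 in the main setting.

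For the other members the intervals show what these samples could resolve. KLF2 was at 0.65 ± 0.42, KLF4 at −0.70 ± 0.55 and NOS3 at −0.47 ± 0.48 on the log2 scale (limma adjusted p = 0.564, 0.665 and 0.779). The 95% interval of NOS3 ran from −1.5 to 0.57 and that of ENG from −2.64 to 2.65, so a change of ENG by several fold in either direction was not detectable. On the deposited values without scaling, ICAM1 stood at 0.37 ± 1.54 and KLF2 at −0.36, and scaling on the pig reference probes brought VCAM1 to −0.10 ± 0.93.

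In the second comparison both donor lines were labelled R (1KO.1TG against late R), and the line and the label early or late cannot be told apart. VCAM1 was 3.87-fold lower in 1KO.1TG (log2 fold change −1.95 ± 0.56, 95% interval −3.17 to −0.73, limma adjusted p = 0.559), which did not pass. Of the 9 members, 0 passed, against 0.391% of all probes called by limma, and VCAM1 alone had an unadjusted p under 0.05, as had 6.65% of all probes. Groups overlapped for all 9 members, while 11.1% of all probes did not overlap. Omitting the low-yield library, 0 members passed (0.522% of all probes) and VCAM1 alone had an unadjusted p under 0.05 (8.87% of all probes). VCAM1 was then 4.29-fold lower (−2.10 ± 0.52, limma adjusted p = 0.273) and did not overlap, ICAM1 lay wholly on the higher side (0.96 ± 0.45, limma adjusted p = 0.532), and 24.1% of all probes did not overlap. VCAM1 stayed below 0 in each of 24 alternative settings, from −2.93 to −1.32, and passed in 0 of them. ICAM1 over all libraries was at 0.57 ± 0.54 and turned to −1.22 on the unscaled values. CAV1 and ENG were at −1.5 ± 1.00 and −1.31 ± 1.04 (limma adjusted p = 0.804 and 0.852), and without replicate 2 of late R they stood at −0.50 and −0.20.

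The third comparison concerned 1 donor line, late R against early bx, where late against early cannot be told apart from R against bx. ICAM1 was 2.08-fold higher in late R (log2 fold change 1.06 ± 0.50, 95% interval −0.02 to 2.13, limma adjusted p = 0.990). It was the 1 member of 9 whose groups did not overlap, as 10.2% of all probes did not. VCAM1 was at 0.73 ± 0.49 and ENG at 1.31 ± 1.01 on the log2 scale (limma adjusted p = 0.990 for both). Of the 9 members, 0 passed in limma and 0 had an unadjusted p under 0.05, against 0% and 1.69% of all probes. The low-yield library belongs to neither group but enters the shared spread, and in its absence ICAM1 had an unadjusted limma p of 0.036 (adjusted p = 0.911), 1 of 9 members under 0.05 against 3.52% of all probes, with 0 passing (0% of all probes) and 1 not overlapping (11%). ENG was at 0.21 without replicate 2 of late R. The 3 comparisons share samples in pairs, so none is independent of the others.

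**Figure D2:**
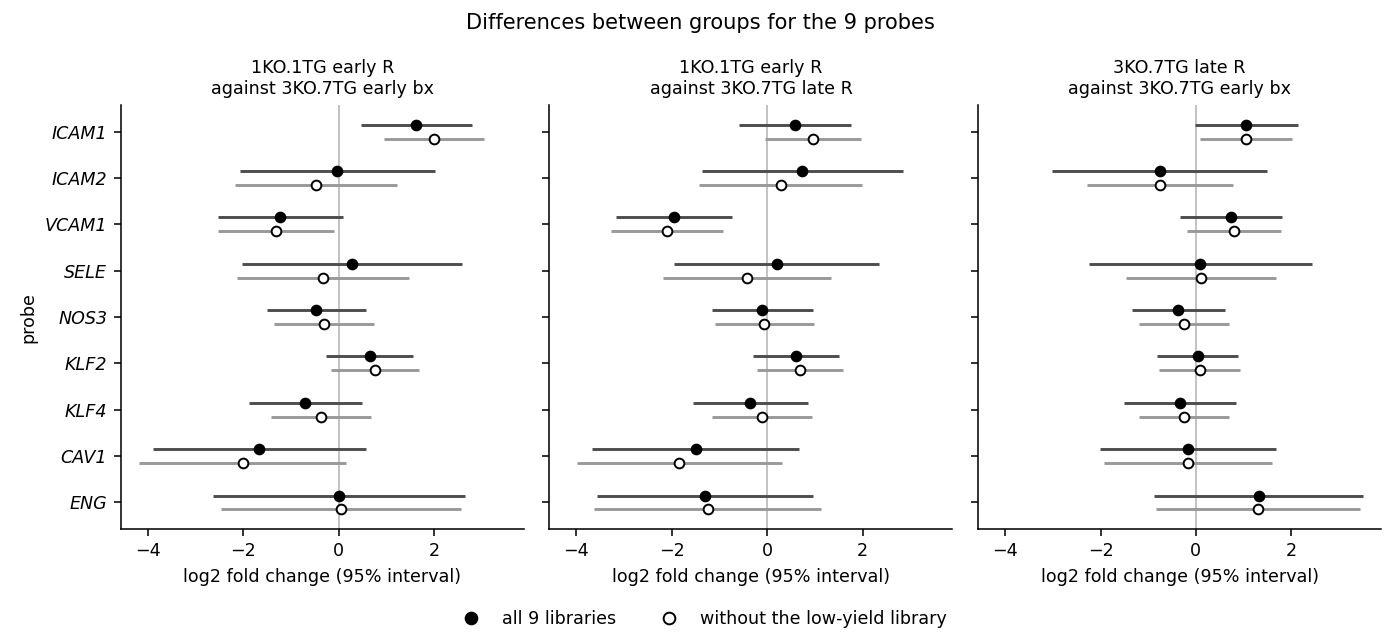
Log2 fold changes of the 9 probes in the 3 comparisons, with 95% intervals from limma, over all 9 libraries (filled) and without the low-yield library (open). ICAM1 lies above 0 in the panel of 1KO.1TG against early bx (1.63), VCAM1 below 0 against late R (−1.95), and the interval of ENG spans 0 in all 3 panels.

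Ratios of 2 probes within a library do not depend on any scaling between libraries. They were computed after the data were seen for all 21 pairs of the 7 members with a mean of at least 50 counts, with an exact two-sided permutation test for each pair and comparison. An exact permutation test of 3 against 3 cannot go below p = 0.1, so no ratio could pass. ICAM1 over VCAM1 was 10.4 and 33.2 in replicates 1 and 2 of 1KO.1TG, against 1.68, 1.98 and 1.89 in early bx and 4.03, 1.20 and 2.39 in late R. The low-yield library gave 1.17, from 7 and 6 counts, both below its highest viral probe of 13. Without it the log2 ratio was 3.33 higher in 1KO.1TG than in early bx and 3.03 higher than in late R (exact permutation p = 0.1 for both, the smallest possible, adjusted p = 0.35 over 63 tests). With it the groups overlapped in both comparisons.

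KLF2 over KLF4 was 0.429, 0.612 and 1.5 in 1KO.1TG, against 0.148, 0.264 and 0.316 in early bx and 0.313, 0.228 and 0.349 in late R. All 3 libraries of 1KO.1TG lay above the 6 others, also when the low-yield library, whose ratio rests on 9 and 6 counts, is left aside (exact permutation p = 0.1 in both comparisons, adjusted p = 0.7 for all libraries and 0.35 for the full ones). NOS3 over KLF2 was 1.53, 1.31 and 1.67 in 1KO.1TG and 2.55, 2.39 and 2.24 in late R, with no overlap, but early bx overlapped both at 4.95, 3.85 and 1.47. CAV1 over ENG separated the 2 groups of the 3KO.7TG line, at 1.52, 1.89 and 2.28 in early bx against 0.647, 0.621 and 0.741 in late R (log2 difference −1.49, exact permutation p = 0.1, adjusted p = 0.7). It held its narrow range in late R although the counts of the 2 genes there ran from 20 to 215 and from 27 to 346. Over all 9 libraries 2, 3 and 3 of the 21 pairs did not overlap in the 3 comparisons, in the order given above. Among all pairs of the 508 probes the shares without overlap were 21.4%, 13.9% and 12%. When the low-yield library was omitted, 12, 11 and 3 of the 21 pairs did not overlap, against 41.9%, 29.5% and 12% of all pairs.

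**Figure D3:**
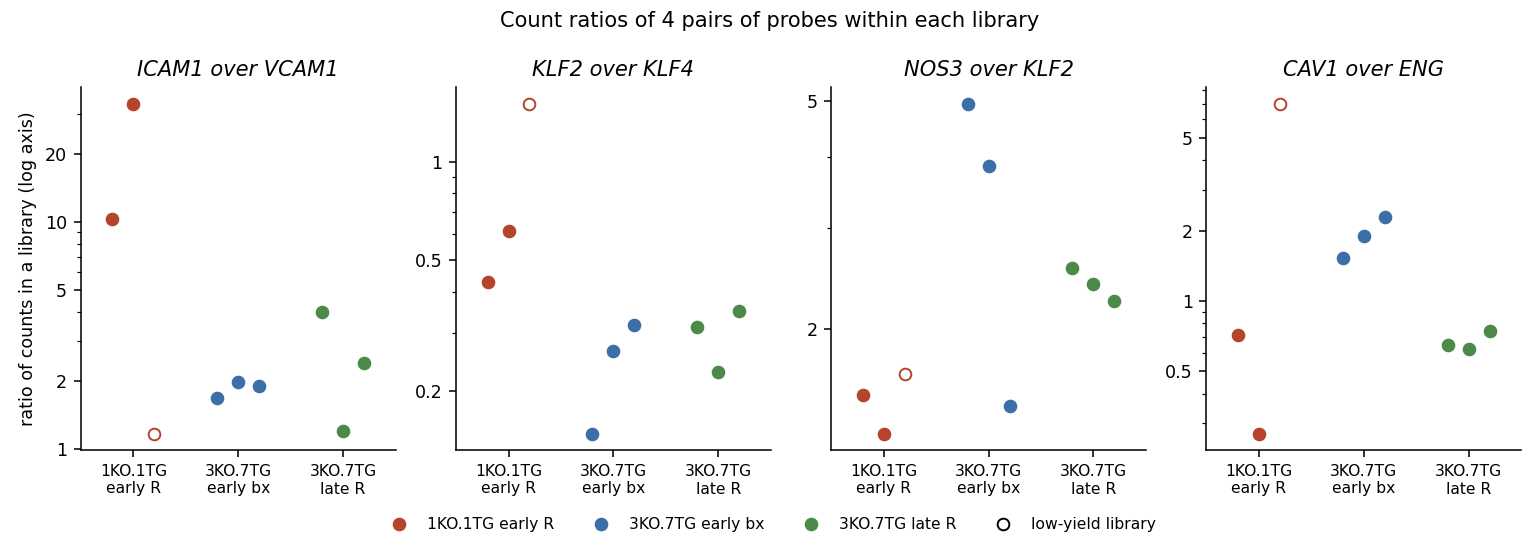
Ratios of the counts of 2 probes within each library, on log axes, by group, with the low-yield library open. ICAM1 over VCAM1 is 10.4 and 33.2 in 2 libraries of 1KO.1TG and at most 4.03 elsewhere, and CAV1 over ENG is at least 1.52 in all 3 libraries of early bx and at most 0.741 in all 3 of late R.

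For GUSB, SDHA, UBB and STK11IP the panel holds a macaque probe beside a pig probe, and the log2 ratio of the pair, averaged over the 4 genes, gives a species index that rises with macaque signal; how specific the probes are was not checked. It averaged −1.75 ± 1.05 (SD, n = 3) in 1KO.1TG, −2.69 ± 1.20 in early bx and −1.99 ± 0.80 in late R. Without the low-yield library the mean index of 1KO.1TG was −1.36 ± 1.13 (n = 2). Across the 8 full libraries, KLF2 was higher where the index was higher (r = 0.79 by Pearson, exact permutation p = 0.019, Spearman rho = 0.69, exact permutation p = 0.069), but not past adjustment over the 9 members (adjusted p = 0.058 and 0.208). Its r was 0.79 with group means removed and 0.65 once the 2 libraries with the most distant index were left out. ICAM1 had r = 0.66 (exact permutation p = 0.073, adjusted p = 0.165; rho = 0.55, exact permutation p = 0.171), which rested on those 2 libraries, since r was −0.043 without them. VCAM1 had r = −0.11 (exact permutation p = 0.789; rho = 0.12). ICAM2 and SELE, the 2 probes with the lowest counts, ran against the index (r = −0.88 and −0.81, adjusted p = 0.058 for both by exact permutation), and r with the log2 library size was −0.89 and −0.70. Between the index and library size r was 0.83. For KLF2, ICAM1 and VCAM1, r with library size was 0.58, 0.41 and 0.25. With the index as a covariate in the limma fit, ICAM1 in 1KO.1TG against early bx was at 1.36 ± 0.51 and VCAM1 in 1KO.1TG against late R at −2.0 ± 0.55 (limma adjusted p = 0.299 and 0.394).

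**Figure D4:**
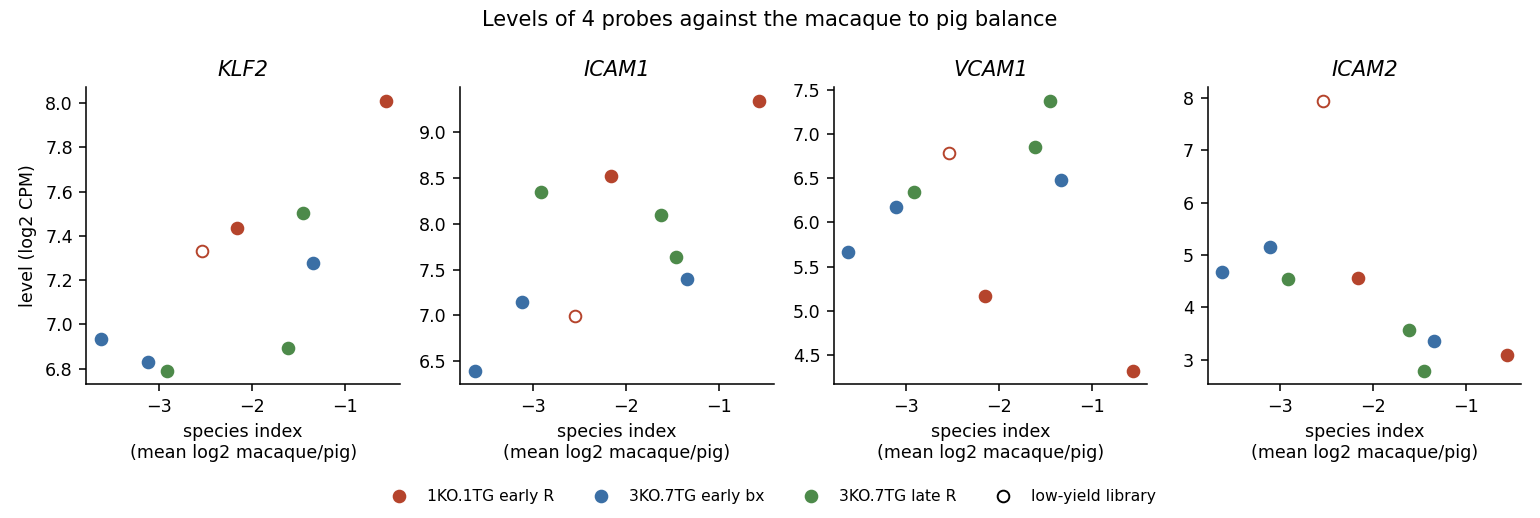
Level (log2 CPM) of KLF2, ICAM1, VCAM1 and ICAM2 against the species index, which rises with macaque over pig signal, with 1 point per library, coloured by group and open for the low-yield library. KLF2 runs upward (r = 0.79 over 8 libraries), ICAM2 downward (r = −0.88), and the 2 full 1KO.1TG libraries lie lowest for VCAM1.

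Genes around the members were counted in lists written from general knowledge, with the members themselves left out. Of 8 measured leukocyte ligands and relatives of the adhesion molecules, 0 passed in limma in any comparison. In 1KO.1TG against early bx 7 of the 8 lay above 0, as did 357 of all 767 probes, with a median log2 fold change of 0.69 against −0.07 for all probes, and 1.25 without the low-yield library. ITGAM, the α chain of the Mac-1 integrin that binds ICAM-1, was at 1.47 ± 0.58 (limma adjusted p = 0.318), with 922, 438 and 8 counts against 88, 72 and 322. ITGB2, its β chain, gave 913, 1234 and 12 counts against 183, 248 and 822, and was at 0.64 over all libraries and 1.24 ± 0.46 without the low-yield library (limma adjusted p = 0.753 and 0.177). ITGA4, the chain that binds VCAM-1, was at −0.27 ± 0.46 without the low-yield library (limma adjusted p = 0.791). ITGB2 was chosen after its values were seen, as was ITGA4.

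Of 23 measured genes of cytokine and NF-κB activation, 0 passed in any comparison, and 18 lay above 0 in 1KO.1TG against early bx (median 0.42; 0.67 without the low-yield library). The cytokine IL1B was at 1.91 ± 0.74 (limma adjusted p = 0.312), with 424, 1839 and 5 counts against 61, 74 and 273, and at 2.58 ± 0.65 over the full libraries (limma adjusted p = 0.0747). TNFAIP3, which terminates NF-κB signalling, lay the other way at −1.95 ± 0.67 (limma adjusted p = 0.245). It gave 1137, 2027 and 24 counts against 3999, 1955 and 2479. Without the low-yield library it was at −1.24 ± 0.55 (limma adjusted p = 0.241). The labels do not say if either donor line carries an added TNFAIP3 copy, and the part of donor modification in these values was not tested. In late R against early bx 13 of the 23 lay above 0 (median 0.26), with CCL2, a monocyte chemokine, at 1.67 ± 0.67 and IL1B at 1.68 ± 0.71 (limma adjusted p = 0.990 for both). SELP, the platelet and endothelial selectin, was above the highest viral probe in 2 of 9 libraries.

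Among 11 measured flow-response, nitric oxide and vessel tone genes, THBD, the anticoagulant receptor that KLF2 is known to induce, was the single gene to pass, with log2 fold changes of −7.26 ± 0.78 in 1KO.1TG against early bx and −6.75 ± 0.78 against late R (limma adjusted p = 2.41e-04 and 3.53e-04). THBD gave 46, 296 and 19 counts in 1KO.1TG and 10494 to 23988 in the other 6 libraries. The labels do not say if either donor line carries an added THBD copy, and the part of donor modification in this difference was not tested. KLF2 stood on the other side of 0 in both comparisons, at 0.65 and 0.61. The list's median log2 fold change was −0.51 and −0.30 in these comparisons, and 0.10 and −0.20 without the low-yield library, where THBD was still the single gene called. PTGS2, an inducible prostaglandin synthase, was at 2.64 ± 0.99 and EGR1, an immediate early factor, at 1.46 ± 0.57 against early bx (limma adjusted p = 0.299 and 0.312).

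Of 18 measured pan-endothelial genes 0 passed, and 10 lay above 0 in 1KO.1TG against early bx (median 0.10; −0.27 without the low-yield library). ERG, an endothelial transcription factor, was at −1.47 ± 0.46, the G protein subunit gene GNG11 at −1.79 ± 0.60 and the angiopoietin receptor gene TEK at −1.5 ± 0.66 (limma adjusted p = 0.230, 0.245 and 0.350). VWF was at 1.58 ± 0.66 in late R against early bx (limma adjusted p = 0.990). Of 12 measured TGF-β family genes and partners of endoglin 0 passed, and 11 lay below 0 in 1KO.1TG against early bx (median −0.65; −0.24 without the low-yield library, 9 below 0), with SMAD5 at −1.32 ± 0.50 and THBS1 at −2.02 ± 0.91 (limma adjusted p = 0.299 and 0.359). THBS1 stood at −0.26 when the low-yield library was omitted.

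Summed neutrophil and platelet markers, like ICAM1, were higher in both full 1KO.1TG libraries than in any early bx library. In the 8 full libraries, the summed level of 5 neutrophil markers was 5312 and 49738 CPM in the 2 libraries of 1KO.1TG, 391 to 593 CPM in early bx and 1559 to 9811 CPM in late R. That of 6 monocyte and macrophage markers was 8121 and 14646 CPM, 3873 to 5489 CPM and 5642 to 11562 CPM in the same order, and that of 3 platelet markers was 1714 and 3005 CPM, 145 to 237 CPM and 303 to 740 CPM. Within late R these markers did not follow ICAM1, which stood at 325, 199 and 275 CPM in replicates 1, 2 and 3. Neutrophil markers summed there to 3548, 9811 and 1559 CPM, and platelet markers to 303, 740 and 382 CPM. In 1KO.1TG against early bx over all 9 libraries, 5 of 5 neutrophil, 3 of 3 platelet and 4 of 6 monocyte markers lay above 0 (median log2 fold changes 3.01, 2.54 and 0.06), and limma called 0 of them. Over the full libraries all measured members of these lists lay above 0 (medians 4.34, 3.22 and 1.44), and limma called 3 of the 5 neutrophil and 2 of the 3 platelet markers higher, against 1.83% of all probes called. The low-yield library summed to 960 CPM for neutrophil, 1172 CPM for monocyte and 246 CPM for platelet markers, and no probe of the panel had a count under 1. T cell markers summed to 1546 and 2774 CPM in 1KO.1TG and 1240 to 2212 CPM in early bx and 1776 to 2442 CPM in late R, so these groups overlapped. B cell and plasma cell markers summed to 1230 and 1352 CPM, 431 to 795 CPM and 510 to 1473 CPM in the same order, and kidney epithelium markers to 28445 and 35179 CPM, 10533 to 56414 CPM and 9332 to 27089 CPM. By mean log2 CPM the kidney epithelium markers overlapped, at 6.20 and 7.41, 6.38 to 8.19 and 6.31 to 7.83. Over the full libraries 4 of these 9 markers lay above 0 and 5 below in 1KO.1TG against early bx (median −0.33). Against late R over the full libraries, 2 of 9 T cell markers lay above 0 (median −0.13). ICAM1 is also made by leukocytes and injured tubules, and the part of these cells in its values was not tested. Summed pan-endothelial levels were 2414 and 2807 CPM in 1KO.1TG, 3238 to 7591 CPM in early bx and 3568 to 5687 CPM in late R. By mean log2 CPM of these genes the groups overlapped, at 4.93 and 5.004, 4.92 to 6.12 and 4.53 to 6.29. The part of endothelial content in the VCAM1 and CAV1 values was not tested.

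For each of the 7 members with a mean of at least 50 counts, the probes most like it were those with the smallest root-mean-square difference in log2 CPM, after each was centred on its own mean, over the 8 full libraries. ICAM1 was followed most closely by APOE, a lipid carrier of macrophages and tubules, and CXCL16, a membrane-bound chemokine (0.37 and 0.38, against a median of 0.95 over 507 probes). ITGB2 came next at 0.39. VCAM1 was nearest to CASP1, the inflammasome protease, and NFATC2, a T cell transcription factor (0.44 and 0.52, median 1.05). KLF2 was nearest to TGIF1, a transcriptional repressor, and to the probe listed as MARCH8. (0.19 and 0.22, median 0.65). KLF4 was nearest to SP100, a nuclear body protein, and CDH13, a cadherin of vessels (0.28 and 0.29, median 0.72), and NOS3 to TGFB2 and ZEB1 (0.22 and 0.26, median 0.74). CAV1 was nearest to the interferon-induced genes MX2 and IFIT1 (0.71 and 0.72, median 1.41), and ENG to FOS and LYVE1, a lymphatic receptor (0.55 and 0.62, median 1.42). Among the members themselves NOS3 and KLF4 were the closest pair (0.33), whereas CAV1 and ICAM1 were the farthest apart (1.95) and ICAM1 and VCAM1 differed by 1.5. With all 9 libraries the nearest probes were the same 2 for KLF2 and ENG, and PLAU and BCL3 took the place of APOE and CXCL16 beside ICAM1.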

How the data were processed

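The authors deposited log2 values for 767 probes in 9 samples, with no step after counting given in the labels. 2 to the power of each value was whole to within a relative 1e-04 and never under 1, so the log2 values were read as unscaled counts. No source used here says if 1 had been added first. Every column was used. In R 4.3.3 with limma 3.58.1, voom (offset 0.5) was run on these counts with trimmed-mean scaling of the library sizes (0.3 of log ratios and 0.05 of mean levels trimmed), then lmFit and eBayes over all 9 samples in 3 group means. Fold changes are voom-weighted, so they can differ from differences of the printed means. P-values, two-sided, were adjusted over all probes (Benjamini-Hochberg) and called at 0.05. The fit was also run on simulated counts with the same dispersion for every probe, which does not show how it performs on these data. An edgeR-type count model was not run.

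The members, the 11 gene lists and the tests were chosen with earlier results of these data known. Named genes were the members, the 2 nearest probes by likeness, and up to 3 list genes with the smallest p in a comparison; SELP, ITGA4, ITGB2 and the tissue and endothelial markers checked for identity (UMOD, LRP2, PECAM1, CDH5, CD34) were named outside this rule, after their values were seen. Equal replicate numbers were not shown to pair samples: deviations of same-numbered samples correlated at −0.45 to 0.48, over 0.1 in 3 of 9 pairs. Between early bx and late R, which share a donor line, r was 0.28, −0.34 and 0.48 for replicates 1, 2 and 3. These values cannot settle whether samples of those groups were paired. Alternatives comprised 20 planned and 4 added after the data were seen. Probe, gene and protein sequences were not used here. 1 tissue marker of the lists is not reported here by name.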

Additional observations from a re-analysis of the deposited data

How the results depend on the processing

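In 24 other settings, 20 planned and 4 chosen after seeing the data, the 27 member results (9 genes in 3 comparisons) gave 565 values with the same direction and call, 76 with the direction reversed and 1 that newly passed; no reversed value passed in limma. The comparisons are given here as A (1KO.1TG against early bx), B (1KO.1TG against late R) and C (late R against early bx), and values are log2 fold changes. A quality weight for each library called 1 member and 33 probes in A. Leaving out 1 library gave 3 to 14 probes called in A (14 without 1KO.1TG replicate 1 and 14 without replicate 3) and 3 to 10 in B (10 without 1KO.1TG replicate 1). Leaving out single libraries turned direction for ICAM2 in A (−0.70 to 0.77), ENG in A (−0.80 to 0.86), SELE in A (−0.44 to 0.71), B (−0.42 to 0.62) and C (−0.63 to 0.66), NOS3 in B (−0.25 to 0.091), KLF2 in C (−0.18 to 0.21) and CAV1 in C (−1.21 to 0.77). The cause was not tested for any reversal.

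Median centring gave ENG −0.10 in A, and in C KLF2 −0.081 and SELE −0.013. Quantile normalization gave in A ICAM2 1.29 and ENG −1.23, in B NOS3 0.075 and in C KLF2 −0.061. The unscaled values gave in A SELE −0.029, KLF2 −0.36 and ENG −1.18, in B ICAM1 −1.22, SELE −0.68 and KLF2 −0.94, and in C NOS3 0.24, KLF4 0.25 and CAV1 0.33. Factors from the pig reference probes gave in A ICAM2 1.14 and NOS3 0.36, in B NOS3 0.24, and in C NOS3 0.12, KLF4 0.11 and CAV1 0.23. With those factors and the low-yield library left out, A had ICAM2 0.22, NOS3 0.42 and KLF4 0.38, B had SELE −0.042, NOS3 0.29 and KLF4 0.24, and C had NOS3 0.13, KLF4 0.14 and CAV1 0.19. Subtracting the viral mean gave SELE −0.39 in B, and without the low-yield library SELE −0.80 in A and −1.38 in B and KLF2 −0.0094 in C. A pseudocount of 1 with equal weights gave ICAM2 0.80 in A, and leaving out probes with a mean under 20 counts gave KLF2 −0.087 in C. Quality weights gave SELE −0.40, −0.13 and −0.28 in A, B and C, ENG −0.033 in A and CAV1 0.20 in C.

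With the species index as a covariate, A had ICAM2 1.28 and ENG −0.14, B had NOS3 0.017, and C had ICAM2 0.075 and KLF2 −0.13. Without the low-yield library as well, A had ICAM2 0.60 and ENG −0.12, B had NOS3 0.048 and SELE −0.0010, and C had KLF2 −0.10. For the correlations with the index, removing group means brought 2 members, ICAM2 and SELE, past adjustment, against 0 otherwise, and gave r = 0.38 for VCAM1, 0.016 for KLF4 and 0.026 for CAV1. All 9 libraries gave 0.022 for KLF4. Leaving aside the 2 libraries whose index lay farthest from the median gave −0.043 for ICAM1, 0.45 for VCAM1, 0.46 for KLF4 and 0.23 for CAV1.

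Replicate numbers were not shown to pair the samples. With the replicate block, ICAM2 was at 0.27 and ENG at −0.24 in A and SELE at −0.033 in B. With the replicate block and the low-yield library left out, 26 probes were called in A, SELE was at −0.92 and ENG at −0.46 in A, and ICAM2 was at −0.0018 and SELE at −1.02 in B. 0 members passed with the block. ICAM2 and SELE had mean counts of 15.2 and 10.1, and 7 of 9 members lay at or below the highest viral probe in the low-yield library.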
